A study of Mus musculus with 16 samples.

Results

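The gene mt-Rnr2 (gene ID 17725) encodes the 16S ribosomal RNA of mouse mitochondria. It spans positions 1094 to 2675 of the mitochondrial chromosome in GRCm38, a length of 1582 bases on the strand of the reference. The gene of the valine tRNA, TrnV, ends at position 1093, and the gene of a leucine tRNA, TrnL1, starts at position 2676. Every non-reference base at every position of the gene was taken, which gave 4746 alleles at 3 per position out of 48897 alleles in the whole mitochondrial genome. Alleles are named by the base of the reference, its position from 1 at the start of the mitochondrial chromosome, and the base found in the reads, as in T2674A.

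The 16S RNA is the core of the large subunit of the mitochondrial ribosome and forms its peptidyl transferase centre, where amino acids are joined. It is transcribed as one long RNA with the 12S RNA (mt-Rnr1) and the tRNAs beside it, and is cut free at the tRNAs. It encodes no protein, so a base change acts, if at all, through the RNA itself, for example its folding or its contacts with ribosomal proteins or tRNAs.

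Cells were sorted from the femurs of mice aged 3 months, all homozygous for PolG D257A, and 16 bulk ATAC-seq libraries were made from them. PolG is the polymerase that copies mitochondrial DNA, and the D257A change takes away its proofreading, so that mutations gather. The 8 sorted subsets were named in the labels by surface markers, as CD24, CD24_CD29, CD29, CD45, CD105, 6C3, Thy and Thy_6C3, and each had a replicate 1 and a replicate 2. No library came from mice with working proofreading, and the labels did not link libraries to mice. A p-value here therefore rests on the spread among libraries, part or all of which may be technical. The tables used here hold mitochondrial positions alone, so the subset names were not checked against marker genes. A fraction in a bulk library cannot tell a few cells rich in an allele from many cells with a little of it.

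The sequences below show the positions on which the results turn, 5′ to 3′ on the strand of the mitochondrial reference, which reads as the RNA with T for U. Capitals mark the altered reference base or bases. T2674 is the second-last base of the gene, and its window (MT:2654-2694) runs on into TrnL1. The windows of T1449 (MT:1429-1469), A1894 (MT:1874-1914), A2037 with A2060 (MT:2017-2080) and T2085 (MT:2065-2105) carry the alleles that stood highest in replicate 2. The window of A2467 (MT:2447-2487) is shown for an allele seen near 1% in every library, and the last (MT:2518-2566) for 6 neighbouring T bases read as G mainly in CD105 replicate 2.
T2674A: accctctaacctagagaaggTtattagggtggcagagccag
T1449C: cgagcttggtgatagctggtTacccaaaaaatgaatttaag
A1894T: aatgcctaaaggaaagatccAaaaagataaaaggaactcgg
A2037G and A2060G: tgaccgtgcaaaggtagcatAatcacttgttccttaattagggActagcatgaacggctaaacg
T2085C: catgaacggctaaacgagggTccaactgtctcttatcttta
A2467G: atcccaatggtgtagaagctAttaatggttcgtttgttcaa
T2538G to T2546G: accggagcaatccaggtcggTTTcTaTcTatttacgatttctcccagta

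The mean coverage of the gene was between 5205 reads per position in CD24_CD29 replicate 2 and 60003 in CD29 replicate 1, with a median of 17751 over the 16 libraries. The thinnest position, also in CD24_CD29 replicate 2, still had 3644 reads. Coverage of the gene was 0.705 to 0.848 times that of the rest of the mitochondrial genome, and was below it in all 16 libraries. At this depth no allele of the gene was empty in every library. An allele was therefore counted only where it made up 1% or more of the reads and had 5 or more of them. Intervals given with a fraction are exact 95% binomial intervals and cover counting error only, since the reads carry no molecular identifiers.

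Of the 4746 alleles, 305 at 284 positions were counted in at least 1 library, among 3487 counted alleles of the whole genome. Thy replicate 2 stood apart from the other libraries. It had 196 counted 16S alleles, against 4 to 53 in the other 15 libraries, and 104 of its 196 were A>C and 46 were T>G. The same held outside the gene, where it had 2334 counted alleles, against 94 to 363 in the other 15. Of those 2334, 1317 were A>C and 711 were T>G. Of the 305, 179 were counted in Thy replicate 2 alone, which left 126 counted elsewhere. The 5 alleles that reached 5% in any library were T2674A, T1449C, T2539G, T2540G and T2542G, and 6 alleles were counted in both replicate numbers. Most counted alleles of the gene thus lay near 1%, and the few high ones belonged to a replicate number or to 1 library.

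**Figure D1:**
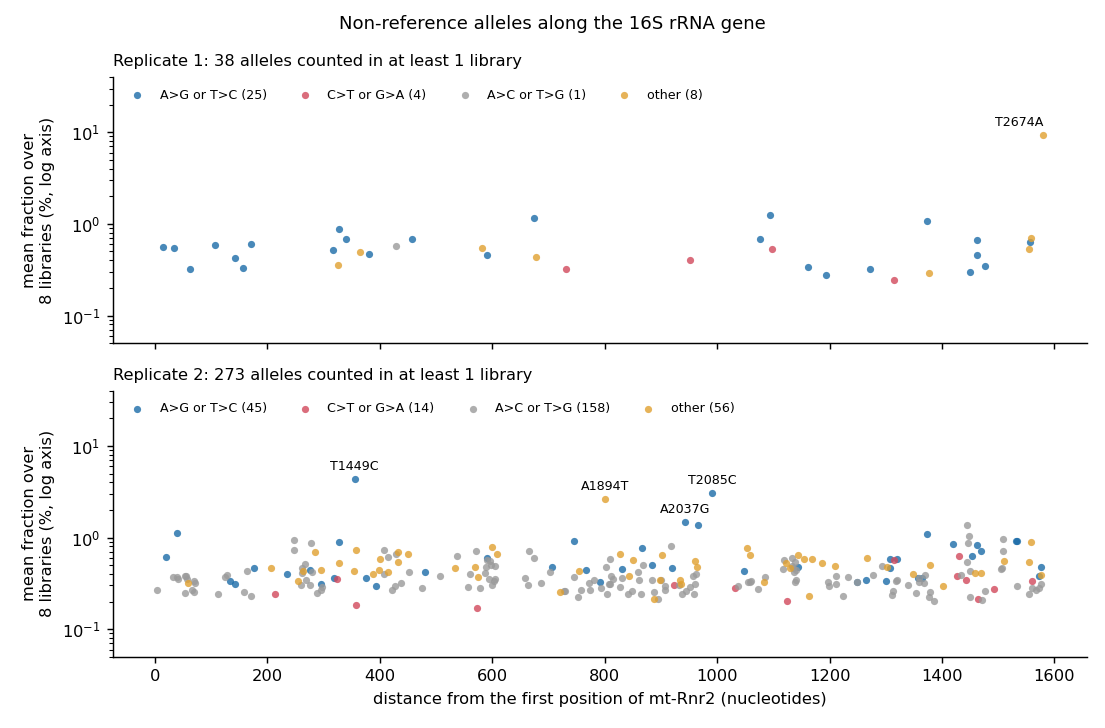
Mean fraction over 8 libraries (%, log axis) of each counted 16S allele against its distance from the first position of mt-Rnr2 (nucleotides), for replicate 1 above (38 alleles) and replicate 2 below (273 alleles), coloured by base change. T2674A stands alone at the end of the gene in replicate 1 at 9.44%, while T1449C, T2085C, A1894T and A2037G stand above the rest in replicate 2.

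The clearest differences within the gene lay between the replicate numbers. T2674A was carried at a high level by every replicate 1 library and by no replicate 2 library, and T1449C, T2085C and A1894T showed the opposite pattern. In replicate 1, T2674A was the sole allele counted in all 8 libraries, out of 38 counted in any. In replicate 2, T1449C, A1894T and T2085C were counted in all 8, out of 273. The same count over the whole genome was 53 of 493 in replicate 1 and 59 of 3126 in replicate 2.

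T2674A had fractions of 6.99% (CD24_CD29), a median of 9.43% and 11.6% (Thy) in replicate 1, against 0.183%, a median of 0.314% and 0.643% in replicate 2. Every replicate 1 library lay above every replicate 2 library. The means were 9.44% ± 1.48 in replicate 1 and 0.370% ± 0.188 in replicate 2 (SD, n = 8 each), a log2 fold change of the odds of the allele of 4.95 (edgeR quasi-likelihood test, adjusted p = 1.967e-07). The neighbouring positions of the gene end did not share this level: the load of all 3 non-reference bases was 0.194% to 0.403% at position 2673 and 0.197% to 0.535% at position 2675 in replicate 1. The base just past the gene, position 2676 in TrnL1, had 0.209% to 0.871% in replicate 1. Coverage at the altered position was 1.02 times that of its neighbours in replicate 1 and 1.01 times in replicate 2 (medians).

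T1449C ran from 0.174% to 0.877% in replicate 1, with a median of 0.658%, against 3.51% to 5.17% in replicate 2, with a median of 4.43%. T2085C ran from 0.110% to 0.859% in replicate 1, with a median of 0.403%, against 2.47% to 3.77% in replicate 2, with a median of 2.96%. A1894T ran from 0.0816% to 0.227% in replicate 1, with a median of 0.167%, against 1.72% (CD24) to 4.39% (CD24_CD29) in replicate 2, with a median of 2.46%. For all 3, every replicate 2 library lay above every replicate 1 library. By edgeR, the log2 fold change of replicate 1 over replicate 2 was -2.94 for T1449C (adjusted p = 2.41e-05), -2.99 for T2085C (adjusted p = 8.262e-05) and -4.08 for A1894T (adjusted p = 4.098e-07).

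**Figure D2:**
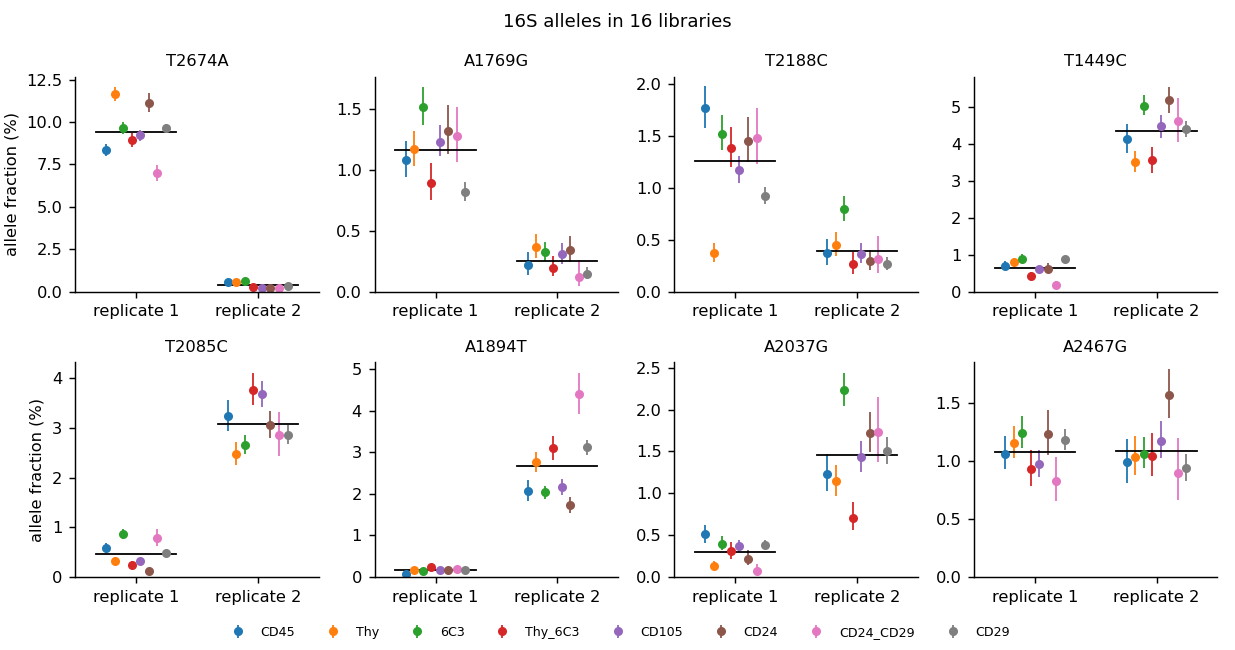
Fractions (%) of 8 alleles of 16S in the 8 libraries of replicate 1 (left of each panel) and the 8 of replicate 2 (right); colours are subsets, bars exact 95% binomial intervals and black lines the means of a replicate number. T2674A and A1769G are higher in every replicate 1 library and T1449C, T2085C, A1894T and A2037G in every replicate 2 library, T2188C overlaps through Thy replicate 1 at 0.370%, and A2467G lies between 0.827% and 1.57% in all 16.

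Over the whole table, 95 of 3487 alleles were higher in replicate 1 by edgeR, which is 2.72%, and 106 were lower, which is 3.04%. In 16S, 5 of 305 were higher (1.64%) and 14 were lower (4.59%), so the gene took part in this difference about as often as the genome did. The median log2 fold change was -0.33 in 16S and -0.32 over all alleles. An allele entered this test by reaching 1% in at least 1 library. In 16S, 38 alleles did so in replicate 1 and 273 in replicate 2, beside 493 and 3126 over all alleles. Lower values in replicate 1, and high values in the number through which an allele entered, were thus in part built in. Leaving out any 1 library kept between 16 and 20 calls in the gene, beside 184 to 202 over all alleles. The 5 alleles called higher in replicate 1 were T2674A, A1769G, T2188C, C2192T and A1264G. None of the 5 was counted in a replicate 2 library. Of the 19 called alleles, 6 were T>C and 6 were A>G, while 1 was C>T (C2192T). Outside the gene, C>T made up 48 of 182 called alleles.

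A1769G had 0.823% to 1.52% in replicate 1, with a median of 1.204%, against 0.119% to 0.365% in replicate 2, with a median of 0.2604% (edgeR adjusted p = 7.847e-05). A1264G had 0.471% to 1.05% in replicate 1, against 0.0683% to 0.295% in replicate 2 (edgeR adjusted p = 0.002433). Neither overlapped between the numbers. T2188C had a median of 1.42% in replicate 1, against 0.340% in replicate 2 (edgeR adjusted p = 0.00536), but Thy replicate 1 at 0.370% lay within the replicate 2 range, whose highest library was 6C3 at 0.794%. C2192T, 4 bases further along, was uneven within replicate 1. It was at 1.42% in Thy_6C3 and 1.17% in CD29 and at 0.00825% in CD24, with a median of 0.352%, against 0% to 0.335% in replicate 2 (edgeR adjusted p = 0.004843).

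Among the alleles lower in replicate 1, A2037G and A2060G followed the 3 above in the size of the difference. A2037G had 0.0704% to 0.507% in replicate 1, against 0.709% (Thy_6C3) to 2.23% (6C3) in replicate 2 (edgeR adjusted p = 0.0003938), and was counted in 7 of the 8 replicate 2 libraries. A2060G had 0.102% to 0.523% in replicate 1, against 0.455% (CD45) to 2.99% (CD29) in replicate 2 (edgeR adjusted p = 0.001331). A2037G did not overlap between the numbers, and A2060G did. Alleles whose 2 sets of 8 libraries did not overlap numbered 3 higher and 6 lower in replicate 1 in the gene (0.984% and 1.97% of 305), against 1.78% and 1.81% of all 3487 alleles. The 6 lower ones were T1449C, T2085C, A1894T, A2037G and, named here after their values were seen, T1133C (0.0138% to 0.355% in replicate 1, against 0.388% to 1.53% in replicate 2) and A1839G (0.0925% to 0.271% in replicate 1, against 0.3296% to 1.44% in replicate 2).

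Most counted alleles were confined to 1 library of their number at the 1% threshold. In replicate 1, 30 of the 38 counted 16S alleles (78.9%) were counted in exactly 1 of 8 libraries, beside 64.9% of the 493 counted over the whole genome. In replicate 2 it was 252 of 273 (92.3%), beside 93.1% of 3126, and 77 of 93 (82.8%) without Thy replicate 2, beside 76.5% of 753. CD45 replicate 1, CD105 replicate 1 and CD24 replicate 2 had no such allele in the gene. Thy replicate 2 had 180 and CD24_CD29 replicate 2, the thinnest library, had 42.

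Some of these stood well clear of the other 7 libraries of their number. C2520T was at 2.45% (2.06% to 2.89%) in CD24_CD29 replicate 2, against 0.00692% to 0.187% in the other 7. A1886G was at 1.74% (1.53% to 1.97%) in Thy_6C3 replicate 2, against 0.0306% to 0.213% in the other 7. T1128C was at 1.504% (1.26% to 1.78%) in CD24_CD29 replicate 1, against 0.0520% to 0.674% in the other 7. In each case the second library of the same subset did not share the level: C2520T was at 0.00958% in CD24_CD29 replicate 1, A1886G at 0.0155% in Thy_6C3 replicate 1 and T1128C at 0.153% in CD24_CD29 replicate 2. A1676T was at 1.48% (1.32% to 1.64%) in Thy_6C3 replicate 1, against 0.213% to 0.724% in the other 7, and reached 0.921% in replicate 2. A1236G was at 1.29% (1.10% to 1.51%) in CD24 replicate 1, against 0.0564% to 0.468% in the other 7, and reached 0.861% in replicate 2.

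Further alleles of this kind ranged from close to the threshold to well above the other libraries. A2563G was at 1.03% (0.905% to 1.16%) in 6C3 replicate 2, against 0.471% to 0.887% in the other 7, and reached 0.994% in replicate 1. T1114C was at 1.07% (0.866% to 1.30%) in CD45 replicate 2, against 0.271% to 0.807% in the other 7, and reached 0.942% in replicate 1. T2556C met the rule in both numbers but in different subsets, with 1.22% in 6C3 replicate 1, against 0.389% to 0.755% in the other 7, and 1.75% in CD29 replicate 2, against 0.601% to 0.846% in the other 7. A2652T was at 1.14% in Thy replicate 1, against 0.416% to 0.853% in the other 7, yet reached 1.36% in replicate 2. In Thy replicate 2 the leading allele was A2602C at 2.25% (2.04% to 2.48%), against 0.624% to 0.928% in the other 7.

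Among alleles confined to 1 library of their number, the highest fraction belonged to a run of neighbouring T bases read as G in CD105 replicate 2. The run lies shortly before the sequence that forms the sarcin-ricin loop, the contact of the large subunit with translation factors. T2542G, the allele of this library chosen by the naming rule, was at 6.94% (6.57% to 7.32%; 1235 of 17805 reads), against 0.0579% to 0.877% in the other 7 libraries of replicate 2. T2539G was at 7.64% in CD105 replicate 2, against 1.60% in Thy replicate 2 and at most 0.486% in the other 14 libraries.

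Named after their values were seen, T2538G, T2540G, T2544G and T2546G were at 2.35%, 6.07%, 2.25% and 0.719% in CD105 replicate 2. In Thy replicate 2 the same 4 were at 1.22%, 0.566%, 0.872% and 0.554%, and in the other 14 libraries none of the 4 passed 0.205%. The fractions were thus highest in the middle of the run and lower at both ends. CD105 replicate 1 showed none of this, with 0.255% for T2539G and 0.0823% for T2542G. Together the 6 alleles summed to 25.97% in CD105 replicate 2, 5.69% in Thy replicate 2 and 0.540% to 0.968% in the other 14 libraries. The deposited counts do not show whether 1 read carries several of these changes.

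**Figure D3:**
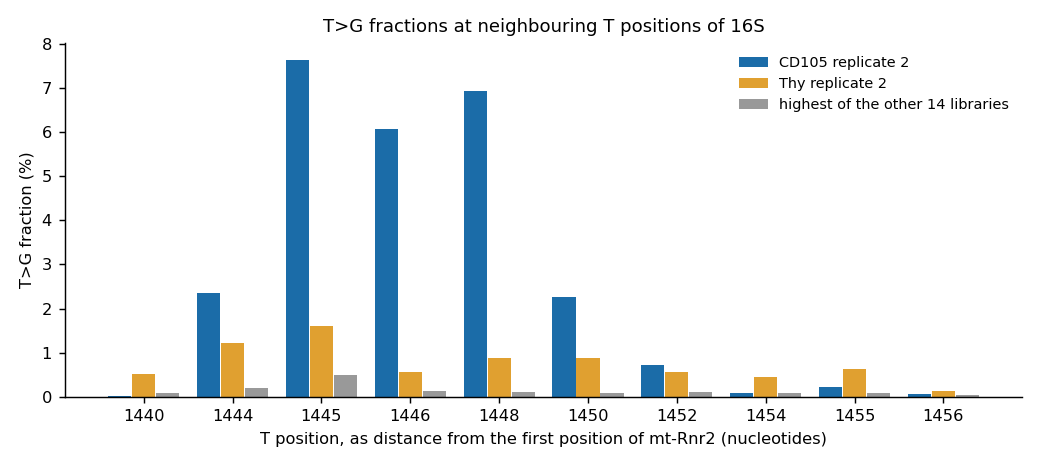
Fraction (%) of T read as G at neighbouring T positions of mt-Rnr2, by distance from its first position (nucleotides), in CD105 replicate 2, Thy replicate 2 and the highest of the other 14 libraries. In CD105 replicate 2 the bars climb to 7.64% and are back under 1% at both ends.

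A2467G was the reverse case, an allele near 1% in every library. It had 0.827% to 1.24% in replicate 1, with a median of 1.11%, and 0.900% to 1.57% in replicate 2, with a median of 1.04%, and was counted in 10 of 16 libraries. A1422G had 0.660% to 1.31% in replicate 1 and 0.601% to 1.03% in replicate 2, and was counted in 4. Both replicate numbers overlapped for each allele, and CD24 replicate 2 was the highest library for A2467G and CD45 replicate 2 the lowest for A1422G. In all, 8 alleles of the gene were at 0.5% or more in all 16 libraries, among 127 of the whole genome.

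Among positions at which no allele reached 1% in any library, the highest mean loads over the 16 libraries were at 2420 (T; 0.972%), 2424 (C; 0.956%) and 1348 (T; 0.900%).

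No 16S allele differed between the sorted subsets by edgeR. This held for the test over all 8 subsets and for each of the 8 contrasts of a subset with the other 7. The background was the same, with 0% of 3487 alleles called in each of these 9 tests. At an unadjusted p under 0.05, 117 of the 305 16S alleles stood out for Thy, which is 38.4%, beside 48.95% of all 3487 alleles. For CD24_CD29 it was 43 (14.1%, beside 6.31% of all) and for Thy_6C3 22 (7.21%, beside 3.16%). The other counts in 16S were 0 for CD45, 1 for 6C3, 4 for CD105, 6 for CD29, 7 for CD24 and 11 over all subsets (0% to 3.61%, beside 0.115% to 1.49% of all). With the replicate block, edgeR again called 0 of the 305 in every one of them. DESeq2, the other tool, called 140 of 305 for Thy, where it called 58% of all alleles, and 20 of 305 (6.56%) for CD24_CD29, where it called 1.92% of all. Over all subsets DESeq2 called 4 of 305 (1.31%), beside 0.516% of all, which were A1369G, A1389G, T1993A and, named after its values were seen, C1308T. With either tool, high shares for Thy and CD24_CD29 were in part built in, since an allele entered the tests by reaching 1% in at least 1 library. Of the 305, 179 entered through Thy replicate 2 alone, and 42 were confined to CD24_CD29 replicate 2 among the libraries of its number.

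The alleles with the smallest p were picked for their difference, so their values describe them and are no test of agreement between libraries of a subset. A1369G was at 0.143% and 0.120% in the Thy_6C3 libraries and 0.133% and 0.115% in the Thy libraries, against 0.214% to 1.16% in the other 12 libraries. Both subsets were thus low in both replicates, yet the edgeR adjusted p for Thy_6C3 was 0.9338 and for Thy 0.09842. A1389G was at 0.0393% and 0.0136% in CD24, against 0% to 1.21% in the other 14 libraries (log2 fold change -2.89, edgeR adjusted p = 0.9774). T1993A was at 0.480% and 1.48% in CD24_CD29, against 0.0835% to 0.405% in the other 14 libraries (log2 fold change 2.52, edgeR adjusted p = 0.2102), and C1308T was at 0.446% and 1.40% in CD24_CD29, against 0% to 0.268% in the other 14. In CD24_CD29 both libraries lay above all 14 others for T1993A and C1308T, and they were the libraries of lowest coverage of the gene. Both alleles entered the tests only through CD24_CD29 replicate 2, the sole library in which they reached 1%.

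For the remaining subsets, both Thy libraries lay above all 14 others for T2046G and both CD29 libraries for G2586A. Both CD105 libraries lay below all 14 others for T2014C, while libraries overlapped for T2256C and T2548C. T2046G, G2586A and T2256C entered the tests only through Thy replicate 2, CD29 replicate 2 and 6C3 replicate 1, so their high values there were in part selected. T2046G was at 0.459% and 1.21% in Thy, against 0.0614% to 0.214% in the other 14 libraries (edgeR adjusted p = 0.09842). T2256C was at 1.08% and 0.648% in 6C3, against 0.0352% to 0.677% in the other 14 (edgeR adjusted p = 0.9964). G2586A was at 0.295% and 1.23% in CD29, against 0.0327% to 0.262% in the other 14 (edgeR adjusted p = 0.986). T2014C was at 0.169% and 0.0825% in CD105, against 0.188% to 1.47% in the other 14 (edgeR adjusted p = 0.9999). T2548C was at 0.293% and 0.234% in CD45, against 0.257% to 1.48% in the other 14 (edgeR adjusted p = 0.9998).

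The load of the gene, the mean over its positions of the summed fraction of all non-reference bases, put a number on all alleles at once. It was 0.378% to 0.481% in 15 libraries and 1.07% in Thy replicate 2. Alleles at 1% or more made up 1.84% to 11.8% of the load in the 15 libraries and 15.4% in Thy replicate 2, so nearly all of it lay under the threshold. The order of the subset means was Thy at 0.760% ± 0.444, CD24_CD29 at 0.473% ± 0.0119, 6C3 at 0.466% ± 0.0218, CD29 at 0.458% ± 0.0156, Thy_6C3 at 0.444% ± 0.000763, CD45 at 0.416% ± 0.0172, CD105 at 0.415% ± 0.00128 and CD24 at 0.385% ± 0.00969 (SD, n = 2 each). CD24_CD29, 6C3 and CD29 overlapped library by library, as did CD45 and CD105. Thy_6C3 lay between these sets, and both CD24 libraries lay below all the others.

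Over all 16 libraries, the subsets accounted for 49.6% of the variance of the 16S load, with an adjusted p of 0.569 in an exact permutation test over all 2027025 pairings of libraries. None of the 51 tests over 17 features of the mitochondrial genome passed (0%). Without Thy replicate 2 the share was 90.9% (adjusted p = 0.0322, exact permutation test), and without both Thy libraries it was 90.8% (adjusted p = 0.0252, exact permutation test). Without Thy replicate 1 the share was 99.7%, but the outlying library was then alone in its subset and added no spread within it. That setting cannot show a difference between subsets. The difference in load thus passed with Thy replicate 2 left out, alone or with Thy replicate 1, and not over all 16 libraries. The settings without Thy libraries were not run with a replicate block. The load of alleles at 1% or more did not pass over all 16 libraries (adjusted p = 0.788) or without both Thy libraries (adjusted p = 0.517, exact permutation tests). The number of such alleles did not pass either, with adjusted p of 0.816 over all libraries and 0.3725 without both Thy libraries (exact permutation tests).

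**Figure D4:**
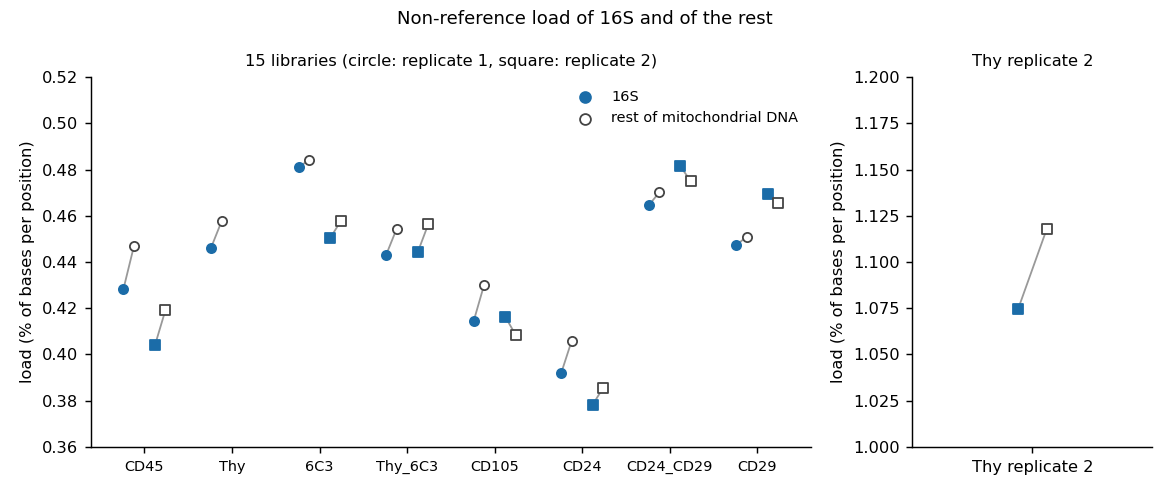
Load (% of bases per position) of 16S (filled) and of the rest of the mitochondrial DNA (open) in each library, circles for replicate 1 and squares for replicate 2; both axes start above 0, and Thy replicate 2 has its own panel. 16S lies under the rest in 13 of 16 libraries, and both CD24 libraries lie lowest.

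Against the rest of the mitochondrial genome in the same libraries, 16S carried slightly fewer counted alleles. It had 15.7 counted alleles per 1000 positions, against 19.9 in the rest (means over 8 subsets), a difference of -4.26 ± 6.70 (SD, n = 8) that had the same sign in 8 of 8 subsets and 13 of 16 libraries (adjusted p = 0.0173, exact sign-flip permutation test, two-sided). The load of alleles at 1% or more was 0.0261% in 16S, against 0.0354% in the rest, a difference of -0.00928 percentage points (adjusted p = 0.0173 in the same exact test). The smallest p this test allows with 8 subsets is 0.0078125 before adjustment. The test takes subsets as separate units, although libraries of a replicate number share alleles, so all p-values of 16S against the rest may be too small. Such differences were common, since 30 of 51 tests over the 17 features passed (58.8%). In counted alleles per 1000 positions, COX1 (14.6), COX3 (14.7) and COX2 (16.2) lay about as low as 16S and also passed. The rest of the genome includes the control region, which had 39.1 per 1000 positions. The difference of 16S from the rest without the control region was not tested.

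The differences between 16S and the rest were not stable. Thy replicate 2, with 123.9 counted alleles per 1000 positions in 16S, against 158.6 in the rest, weighed on the means: without it the difference was -2.50 per 1000 positions and without both Thy libraries -1.93. At a threshold of 0.5% the number per 1000 positions was 1.45 higher in 16S than in the rest and did not pass. In replicate 2 alone, 16S was lower in 5 of 8 subsets and neither measure passed. Leaving out CD24_CD29 replicate 1 (-3.13 per 1000 positions) or CD105 replicate 1 (-3.92) ended both calls, and leaving out CD29 replicate 1 ended that of the number per 1000 positions (-3.76, adjusted p = 0.151, exact test). The load of all alleles was 0.477% in 16S, against 0.487% in the rest, and did not pass (-0.00939 percentage points, adjusted p = 0.0514, exact sign-flip test). It passed without the replicate 2 library of Thy (adjusted p = 0.0455), CD105 (0.0498), CD24_CD29 (0.0257) or CD29 (0.0275) in the same exact test. Leaving out the 6 T>G alleles of CD105 replicate 2, chosen after their values were seen, made it -0.0110 in 8 of 8 subsets (adjusted p = 0.0166, exact test).

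The kinds of base change showed the steadiest contrast with the rest of the genome. C>T was rarer per available C in 16S, with 8.54 per 10000 reads at a C, against 12.9 in the rest, a difference of -4.38 ± 0.512 (SD, n = 8 subsets) that was negative in 16 of 16 libraries (adjusted p = 0.0125, exact sign-flip test). The libraries ran from 6.998 to 10.4 in 16S, against 11.6 to 14.5 in the rest, with no overlap. Counted alleles outside Thy replicate 2 had 12 C>T among 126 in 16S (9.52%), against 234 of 1004 in the rest (23.3%). The gene also holds less C, 304 of 1582 bases (19.2%), against 25.0% in the rest, and the values per C allow for that.

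C>T was also rarer in 16S among alleles under the threshold. With alleles at 1% or more left out, an alternative chosen after the data were seen, 16S had 6.89 to 9.75 per 10000, against 7.72 to 11.2 in the rest, and was lower in 16 of 16 libraries, though these ranges overlapped. The mean difference was then -1.51, in place of -4.38. The median over C positions was 3.65 in 16S, against 4.88 in the rest (medians over libraries), again lower in 16 of 16, with a mean difference of -1.30. Among the 17 features, 16S ranked 16 in C>T by its median of 8.29 over libraries, above the control region at 3.92 and below COX3 at 10.4. The 12S gene mt-Rnr1, the other ribosomal RNA gene, was at 12.7, near the middle of the range.

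Other base changes differed less. Of the 12, 8 passed in 16S, beside 147 of 204 tests over all features (72.1%). A>C (13.2 in 16S, against 14.6 in the rest) and C>G (4.14 against 4.83) were lower in 16 of 16 libraries, and A>G (14.7 against 13.8), G>C (6.37 against 5.92), C>A (31.6 against 31.1), G>T (31.8 against 31.4) and T>A (19.5 against 18.8) were higher in 8 of 8 subsets (adjusted p = 0.0125 for each, exact sign-flip test). T>A was nevertheless lower in 7 of 16 libraries, all of replicate 2. T2674A is itself a T>A change, at 6.99% to 11.6% in replicate 1 and 0.183% to 0.643% in replicate 2. The difference in T>A without this allele was not tested. Without both Thy libraries the difference in A>C was -0.736, in place of -1.42. T>C, the commonest change among counted 16S alleles outside Thy replicate 2 with 37 of 126, was at 20.3 in 16S, against 19.2 in the rest, and did not pass (adjusted p = 0.145, exact test). G>A, the C>T of the opposite strand, was at 7.92 in 16S, against 8.67 in the rest, lower in 14 of 16 libraries (adjusted p = 0.0518, exact test). Without both Thy libraries it was 7.67 in 16S, against 8.57 in the rest, and passed (adjusted p = 0.0425, exact test).

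**Figure D5:**
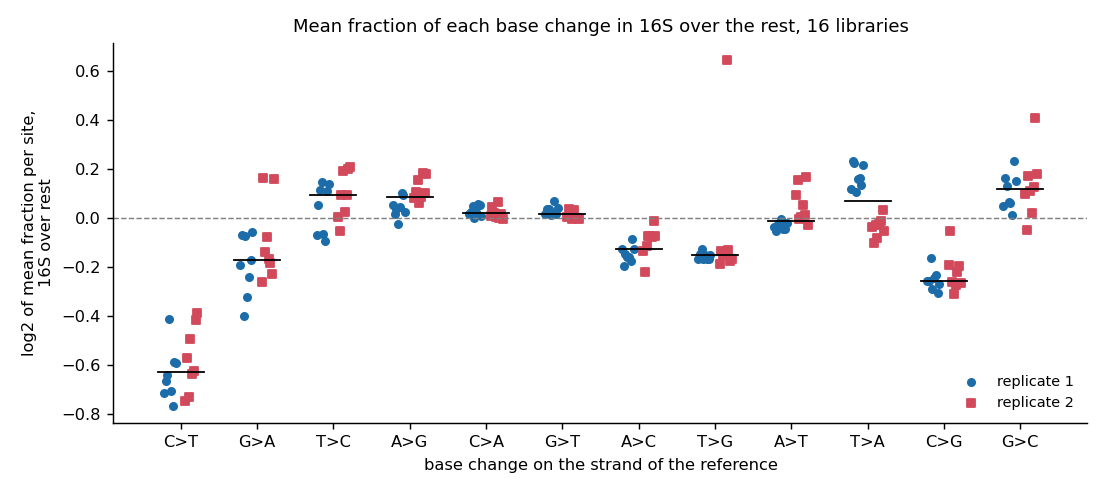
Log2 of the mean fraction per site in 16S over that in the rest of the mitochondrial genome, for 12 base changes in 16 libraries (circles replicate 1, squares replicate 2, black lines medians). C>T lies below 0 in every library, and the single high T>G point is CD105 replicate 2 with its run of T>G alleles.

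Along the gene, load varied little. In 14 windows of 113 bases, the median over the 15 libraries other than Thy replicate 2 was lowest at 0.406% in positions 1546 to 1658 and highest at 0.489% in positions 1320 to 1432. The last window, positions 2563 to 2675, followed at 0.483% and holds T2674A. Positions 2450 to 2562, with the T>G run, held 23 of the 126 alleles counted outside Thy replicate 2, and 1546 to 1658 and 1772 to 1884 held 4 each.

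Among the other features, the load of mt-Rnr1 followed that of mt-Rnr2 most closely over the 16 libraries, with Pearson r = 0.999 (0.969 without Thy replicate 2), then the tRNA genes together (0.967 without it) and ND1 (0.967 without it). These values describe libraries that share reads, depth and sorting, and all features rose together in Thy replicate 2. By median load, 16S ranked 13 of 17 with 0.445%, next to mt-Rnr1 with 0.445% and the tRNA genes with 0.443%, and libraries of these 3 overlapped throughout.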

How the data were processed

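For 16 ATAC-seq libraries, the authors deposited raw counts: reads covering each mitochondrial position, and reads with each non-reference base there. The submitters' processing notes name BWA 0.7.17, cutadapt 2.10, bcl2fastq 2.20 and the builds GRCm38 and mm10. Read filters, duplicates and nuclear copies of the sequence: not given in the sources used here. Gene bounds came from RefSeq (GRCm38) and reference bases from the deposited table.

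Fractions are non-reference counts over coverage. Alleles of 1% or more with 5 or more counts in at least 1 library were tested by edgeR 4.0.16 (R 4.3.3) on pairs of non-reference and reference counts, with a term per library, and p-values were adjusted by Benjamini-Hochberg over all 3487 alleles. DESeq2 1.42.0 was the alternative. Gene-level values were tested by exact permutation over libraries or subsets (numpy 2.4.6), adjusted over 17 features by 3 measures or 12 base changes. Scripts were tested on simulated data.

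Alleles named were the 5 highest by mean in each replicate number, all alleles counted in 8 of 8 libraries, the top allele confined to each library, the smallest edgeR p per subset test, the 5 largest called differences between numbers in each direction, and the 3 positions of highest load with no allele at 1% in any library; 1 further allele of the rule is not reported here. Members, lists and tests were chosen with earlier results of these data known. The labels do not say what a replicate number marks. Differences between replicate 1 and replicate 2 correlated between subsets at 0.343 to 0.863 in all 28 pairs of subsets. A replicate block was therefore fitted as an alternative to the main tests between subsets, which had none.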

Additional observations from a re-analysis of the deposited data

Results flagged for a closer look

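In 7 of 26 sets of 8 libraries of a replicate number, 1 library lay far from the other 7 by Dixon's criterion. The sets were related to each other, and their alleles were named for their values in these same data. No rate by chance is therefore set beside this count. Of the 7 flagged sets, 3 held the same outlying library. Thy replicate 2 had a 16S load of 1.07%, against 0.378% to 0.481% in the other 7, a load of alleles at 1% or more of 0.165%, against 0.01003% to 0.0568%, and 196 counted alleles, against 8 to 53. The rest of the mitochondrial genome moved with it, with a load of 1.12% in Thy replicate 2.

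The other 4 were single alleles of replicate 2. T2539G was at 7.64% in CD105, against 0.245% to 1.60% in the other 7. It was named for its replicate 2 mean of 1.39%, which this library raised above the median of 0.307%. A2467G was at 1.57% in CD24, against 0.900% to 1.18%. A1422G was at 0.601% in CD45, below the 0.887% to 1.03% of the others. T2188C was at 0.794% in 6C3, against 0.263% to 0.448%.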

How the results depend on the processing

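Of 256 alternatives run, 221 were labelled as unchanged. For tested differences this meant the same direction and side of the threshold. For counts of alleles, calls or passing base changes it meant a count equal to the main one or within a fixed ratio of it. The cause of the other 35 was not tested unless stated. At a threshold of 0.5%, the difference per 1000 positions reversed to 1.448 (adjusted p = 0.762, exact test), and the difference in load of alleles above it was -0.005786, not passing; alleles counted in all 8 libraries numbered 13 in replicate 1 and 17 in replicate 2, and alleles confined to 1 library 306 and 1297. At 2%, 0 and 22 were confined to 1 library, and 6 of the 26 tested 16S alleles were called between the replicate numbers. Calls over all 314 alleles tested at 2% were not counted. Replicate 1 alone gave a load difference of -0.01038; replicate 2 alone gave -0.008426 for alleles at 1% or more and -3.957 per 1000 positions, neither passing. Without both Thy libraries the adjusted p of the load between subsets was 0.0252 (exact test). Without the T>G run the load difference was -0.0110.

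DESeq2 called 4 16S alleles over all subsets, beside 18 of all 3487, and 160 in the 8 contrasts. Of these, 140 were for Thy, beside 2024 of all alleles, and 20 for CD24_CD29, beside 67. In the 8 contrasts, non-reference counts with a coverage offset gave 209 and with TMM 11. Calls over all alleles were not counted for either. With the replicate block, edgeR called 0 over all subsets and 0 in the contrasts, and the exact test of load between subsets gave an adjusted p of 0.402. The block changed no call of a 16S allele.

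Leaving out 1 library at a time, calls numbered 0 to 177 over all subsets and 0 to 199 in the contrasts, both highest without Thy replicate 1, where Thy replicate 2 stands alone and is assumed to vary like the other groups; without CD24_CD29 replicate 1 the contrasts gave 4 (A1669T, T1993A, G2030C and C2520T, named after their values were seen). Between the replicate numbers there were 16 to 20 calls among 126 to 305 tested 16S alleles. Over all 1130 to 3487 tested alleles there were 184 to 202. The exact adjusted p between subsets ran from 0.00168 to 0.674 for load, 0.0345 to 0.868 for load at 1% or more and 0.0248 to 0.892 for the number of alleles. The lowest of each came without Thy replicate 1. 16S minus rest ran from -0.0114 to -0.00738 for load, -0.0121 to -0.0065 for load at 1% or more and -6.02 to -2.50 per 1000 positions, and 6 to 9 base changes passed. Confined alleles ran from 21 to 31 in replicate 1 and 77 to 252 in replicate 2 (77 without Thy replicate 2), and those counted in every library were 1 throughout and 3 to 4.

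In CD24_CD29 replicate 2, the thinnest library, the thinnest position of the gene had 3644 reads. All mice lacked proofreading, so no background without it was measured.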
